A study of Mus musculus with 20 samples.

Results

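Transcript levels of 7 genes that mark pericytes were followed through every library: *Pdgfrb*, *Rgs5*, *Cspg4*, *Abcc9*, *Mcam*, *Ndufa4l2* and *Higd1b*. The members are the 7 rows of those symbols among 43280 gene symbols counted, together with the open-chromatin peaks around their starts. In the embryonic intestine *Rgs5* was the only one of the 7 that differed between the organs of control embryos past the threshold, at a mean of 217 against 102 CPM (counts scaled to the size of the library) in the stomach. None of them changed past the threshold in the main fit when *Eed* was deleted in the embryo. In a DESeq2 fit with a spike-in factor, the kind the study used, *Abcc9* was called lower in both embryonic organs. That factor can follow genotype, since spike-in counts were lower in every embryonic *Eed* KO library than in every embryonic control. Scaling by spike-in totals called *Abcc9* in neither organ. In the adult intestine *Rgs5* fell from 12249 to 3701 CPM and *Abcc9* from 41.1 to 19.0 CPM in the libraries labelled EED-KO, while leukocyte genes rose strongly in the same libraries.

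Pericytes are mural cells that sit on capillaries within the basement membrane they share with the endothelium. Endothelial cells release PDGF-B, and the receptor PDGFRβ on the mural cell brings it to the vessel and keeps it there. No single gene defines the cell, since *Pdgfrb* is also made by fibroblasts and smooth muscle, and *Cspg4* and *Mcam* by other cells as well, so pericytes are usually recognised by several genes at once. *Eed* encodes a core subunit of Polycomb repressive complex 2, which methylates histone H3 at lysine 27 and helps to hold developmental genes silent.

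Embryonic cells were taken at E13.5, and the labels give the strain as C57BL/6, whereas the study's methods describe mixed backgrounds, with 129 and C57BL/6 for the Eed allele and C57BL/6J and CD-1 for the reporter. Controls were Bapx1-cre;Rosa26mTmG, and *Eed* KO embryos were Eedfl/fl;Bapx1-cre;Rosa26mTmG, so that Bapx1-cre, which is active in gut mesenchyme, and the GFP reporter were shared by both genotypes. GFP+ cells were sorted from stomach or intestine, with 2 RNA libraries for each organ and genotype, 8 in all. Adult cells came from the small intestine of mice of about 10 weeks, with the villi scraped off, and the 4 libraries are labelled WT and EED-KO, 2 each. Both adult genotypes carried the tamoxifen-activated Pdgfrb Cre-ERT2 driver and Rosa26mTmG, were given tamoxifen for 5 days and were sorted for GFP, and the mutants also carried Eed fl/fl. The adult cells were therefore selected through *Pdgfrb* itself, so its presence in these libraries is part of the sort. The labels do not say whether the libraries came from separate animals or from pools, and p-values measure the spread between these samples only. With 2 libraries against 2, an exact permutation test of a single gene cannot go below p = 0.333, so tests come from edgeR's quasi-likelihood fit across all genes, with Benjamini-Hochberg adjustment. Calls require both an adjusted p under 0.05 and a change of more than 1 log2 unit, and ± after a log2 fold change is its standard error.

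Counts on genes ranged from 30236159 to 39606157 in the embryonic libraries and from 11404712 to 15903642 in the adult ones. Counts on spike-ins were 26227 to 37590 in the embryonic controls and 4871 to 14932 in embryonic *Eed* KO. *Eed* itself fell in both embryonic organs, from 38.1 and 40.1 to 10.7 and 8.59 CPM in the intestine and from 40.1 and 41.5 to 11.5 and 7.40 CPM in the stomach. In the adult libraries it stood at 29.7 and 33.4 CPM in WT and at 25.7 and 25.05 CPM in EED-KO, a log2 difference of -0.32 ± 0.21 (adjusted p = 0.317, edgeR). Deletion is thus not shown by the *Eed* count in the adult samples, and they are named below by their labels. The study measured the efficiency of *Eed* deletion in isolated pericryptal cells separately, and that measurement was not examined here. As a check of the label mesenchyme, the fibroblast list summed to 12922 to 24762 CPM in the embryonic libraries, the epithelial list to 67.5 to 123 CPM and the leukocyte list to 5.35 to 14.1 CPM.

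Open chromatin and sequence at the gene starts are given first. The genes are spread over 6 chromosomes, with *Cspg4* and *Mcam* both on chromosome 9. In GRCm38/mm10 with the GENCODE annotation, *Rgs5* runs over chr1:169655501-169695813 on the plus strand and *Abcc9* over chr6:142587862-142702274 on the minus strand. *Cspg4* runs over chr9:56865104-56899870 and *Mcam* over chr9:44134469-44142727, both on the plus strand. *Ndufa4l2* lies at chr10:127514939-127517152 and *Higd1b* at chr11:102835849-102838040, both on the plus strand. 3 members overlap a gene on the other strand: *Ndufa4l2* shares 30 bases with *Shmt2*, *Mcam* 17 bases with *Gm10687* and *Abcc9* 11868 bases with a long antisense gene that had a mean of 0 CPM. Adult counts did not use strand, so reads inside these overlaps cannot be assigned to either gene.

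RefSeq promoters matched 4 of the 7 symbols: *Rgs5*, *Abcc9*, *Cspg4* and *Mcam*. The 250 bases upstream of the start are shown for the 3 of them whose start is the same base in RefSeq and in the annotation used for the counts, because the peaks described next lie over these bases. They are from GRCm38.p6, read 5′ to 3′ on the gene's strand, and capitals mark GGGCGG on either strand and CANNTG.
Rgs5, chr1:169655251-169655500, plus strand: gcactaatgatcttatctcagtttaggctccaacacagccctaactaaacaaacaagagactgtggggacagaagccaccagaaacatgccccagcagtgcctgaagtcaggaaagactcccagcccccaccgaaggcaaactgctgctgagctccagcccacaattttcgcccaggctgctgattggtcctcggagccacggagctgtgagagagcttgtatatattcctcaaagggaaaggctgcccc
Abcc9, chr6:142702275-142702524, minus strand: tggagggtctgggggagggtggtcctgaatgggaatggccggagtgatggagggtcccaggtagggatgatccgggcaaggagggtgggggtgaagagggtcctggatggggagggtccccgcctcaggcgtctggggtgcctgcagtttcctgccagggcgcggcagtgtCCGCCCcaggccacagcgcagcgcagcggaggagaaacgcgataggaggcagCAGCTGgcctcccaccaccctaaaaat
Cspg4, chr9:56864854-56865103, plus strand: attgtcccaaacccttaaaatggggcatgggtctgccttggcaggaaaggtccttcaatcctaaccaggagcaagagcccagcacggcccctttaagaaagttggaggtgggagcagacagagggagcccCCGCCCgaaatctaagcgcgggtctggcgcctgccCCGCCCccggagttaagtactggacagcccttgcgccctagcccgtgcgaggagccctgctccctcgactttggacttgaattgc

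The *Rgs5* window held neither motif. GGGCGG, the core of the box bound by SP1, occurred once in the *Abcc9* window and 2 times in that of *Cspg4*. In *Mcam*, whose RefSeq start lies 189 bp from the annotated start, this box occurred 5 times. *Abcc9* and *Mcam* each held a single E-box, which is the name of the other motif marked. Both strands were searched, and matches of the 2 motifs did not overlap. Over 32851 RefSeq promoters, the share of windows of the same length with the SP1 core was 32.7%, and the share with an E-box was 66.2%. The CArG box, the element bound by serum response factor, was in none of the 4 windows and in 1.47% of all windows. The GC content rose from 53.6% at *Rgs5* through 60.4% at *Cspg4* and 66.8% at *Abcc9* to 73.6% at *Mcam*, against a median of 52.4% over all windows. The observed over expected CpG frequency ran from 0.226 at *Rgs5* to 0.739 at *Mcam*, with 0.464 at *Abcc9* and 0.527 at *Cspg4*, and its median over all windows was 0.373. These are descriptions of letters in the reference sequence, and binding was not measured.

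Accessible regions had been called by ATAC-seq, a transposase assay of open chromatin, as 1 list for each embryonic condition with replicates pooled, so that conditions can be set side by side but not tested. Of the 7 members 5, *Pdgfrb*, *Rgs5*, *Cspg4*, *Abcc9* and *Mcam*, had a peak within 1000 bp of their start in all 4 lists. Between 88% and 89.1% of the tested genes had one in each list (88% and 89.1% in the control and *Eed* KO intestine, 88.4% and 89.1% in the control and *Eed* KO stomach), so a peak there was the rule for genes in these cells.

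In the list of the control intestine the peak at *Rgs5* extended from -402 to 221 bp relative to the start, with 4.70-fold enrichment over background. The other lists gave 5.25-fold in the *Eed* KO intestine, 5.01-fold in the control stomach and 4.40-fold in the *Eed* KO stomach. *Abcc9* had 5.44-fold and 4.68-fold in the control and *Eed* KO intestine, and 5.66-fold and 5.07-fold in the stomach. *Pdgfrb*, at chr18:61045150-61085061 on the plus strand, had a peak that reached up to 2213 bp into the gene, with 4.22-fold and 4.51-fold in the intestine and 5.09-fold and 4.46-fold in the stomach. *Cspg4* lay between 2.89-fold and 3.14-fold, and *Mcam* between 2.75-fold and 3.31-fold. All of these were below the median peak of tested genes with one, which was between 6.46-fold and 6.91-fold in the 4 lists.

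**Figure D1:**
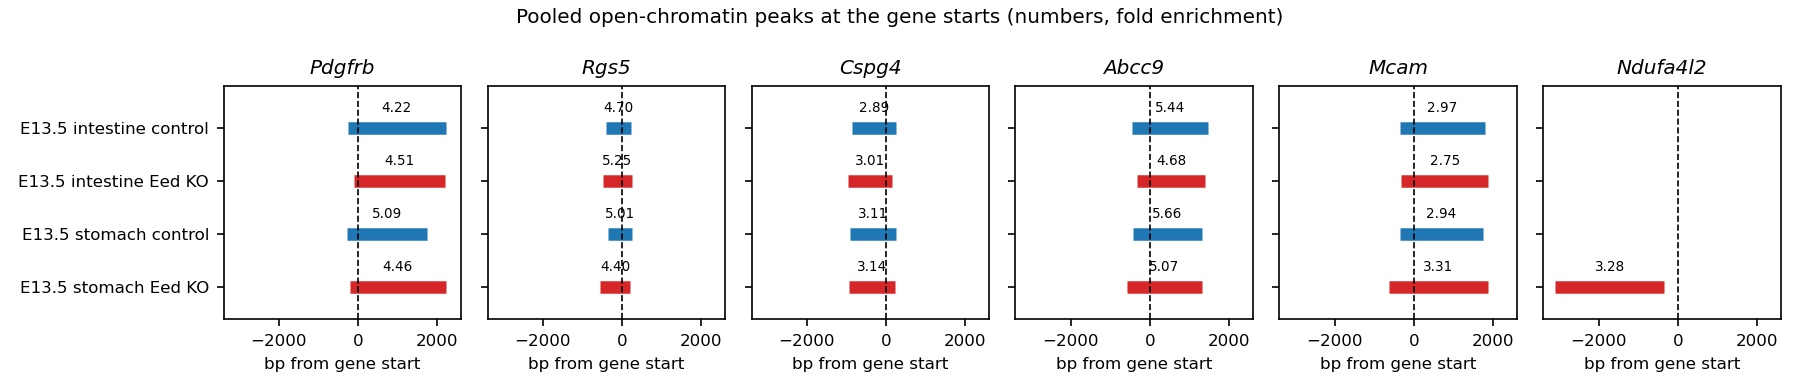
Extent of the pooled ATAC-seq peak at the start of 6 members in the 4 embryonic lists, as distance from the gene start in bp (horizontal axis) by list (rows; blue, control; red, *Eed* KO), with the fold enrichment above each bar. The start of *Pdgfrb*, *Rgs5*, *Cspg4*, *Abcc9* and *Mcam* is covered in every list, whereas the single *Ndufa4l2* bar ends at -353 bp, before its start; *Higd1b* had no peak in this window.

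The 2 members with little or no embryonic RNA had no peak over their start. The nearest peak at *Ndufa4l2* entered the 1000 bp window only in the *Eed* KO stomach, where it ran from -3093 to -353 bp relative to the start with 3.28-fold enrichment. That region was also in the other 3 lists, further upstream. *Higd1b* had no peak within 1000 bp in any list, and its nearest region in all 4 lists lay at -3214 to -2648 bp, with 3.61-fold to 4.14-fold enrichment. A window of 5000 bp held a peak for all 7 members in all 4 lists.

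Within the genes and 20000 bp on either side, most regions were common to the conditions. *Mcam* had 4 regions, all of them in all 4 lists. *Pdgfrb* had 17 regions with 11 in all 4 lists, *Cspg4* 18 with 11, *Abcc9* 16 with 7 and *Rgs5* 11 with 5. The strongest region of *Rgs5* lay at 11563 to 13337 bp, inside the gene, with 5.72-fold and 5.95-fold in the control and *Eed* KO intestine and at 7.27-fold and 4.90-fold in the stomach. A region at -2191 to -1554 bp had 4.92-fold and 3.84-fold enrichment in the control intestine and stomach, and 3.25-fold and 3.01-fold in the *Eed* KO lists. At 38156 to 38511 bp after its start a region was listed only in the *Eed* KO conditions, at 2.99-fold in the intestine and 3.98-fold in the stomach. *Cspg4* had one region only in the lists of controls, at -22792 to -19858 bp with 3.37-fold enrichment in the intestine and 4.16-fold in the stomach, and one only in those of *Eed* KO, at -17453 to -17181 bp with 3.08-fold and 3.26-fold. The lists hold between 103808 and 119181 peaks, and without replicates a region missing from a list was not shown to be closed.

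Levels of the 7 genes are given per length, as TPM (transcripts scaled to a common total), where genes are compared with each other. In the control embryonic intestine *Pdgfrb* was highest at 226 ± 34.5 TPM (mean ± SD, n = 2 libraries here and for the other levels). *Rgs5* at 143 ± 27.2 TPM and *Abcc9* at 141 ± 11.4 TPM overlapped each other. *Mcam* at 50.7 ± 0.365 TPM and *Cspg4* at 45.8 ± 7.54 TPM overlapped too. *Ndufa4l2* followed at 3.14 ± 1.14 TPM, and *Higd1b* had 0 counts in every embryonic library. A count of 0 allows up to 3 counts, which is 0.0757 to 0.0992 CPM in these libraries.

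The control stomach kept *Pdgfrb* first at 172 ± 31.8 TPM, with *Abcc9* at 137 ± 5.18 TPM, and *Rgs5* next at 67.8 ± 21.7 TPM. There *Mcam* was at 47.9 ± 3.59 TPM, below both *Rgs5* libraries, *Cspg4* at 24.1 ± 4.95 TPM and *Ndufa4l2* at 1.52 ± 0.323 TPM.

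In the adult WT libraries the order was different. *Rgs5* stood at 6919 ± 885 TPM, the 12th highest mean of all genes, and made up 95.9% and 94.0% of the summed TPM of the 7. *Ndufa4l2* was second at 236 ± 70.3 TPM followed by *Pdgfrb* at 67.1 ± 14.02 TPM. *Higd1b* at 17.6 ± 2.43 TPM, *Mcam* at 16.5 ± 1.29 TPM and *Abcc9* at 14.02 ± 2.71 TPM overlapped, and *Cspg4* at 11.3 ± 1.88 TPM overlapped *Abcc9*.

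Set beside the control embryonic intestine, the adult WT mean was 48.4-fold higher for *Rgs5* and 75.3-fold higher for *Ndufa4l2* in TPM. It was 10.1-fold lower for *Abcc9*, 4.07-fold lower for *Cspg4*, 3.37-fold lower for *Pdgfrb* and 3.07-fold lower for *Mcam*. For all 7 genes the 2 sets of libraries did not overlap, but the share of all genes for which that held was not computed. Stage, Cre driver, dissection, library kit and strand differ together between these libraries and cannot be told apart, and no test was made.

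**Figure D2:**
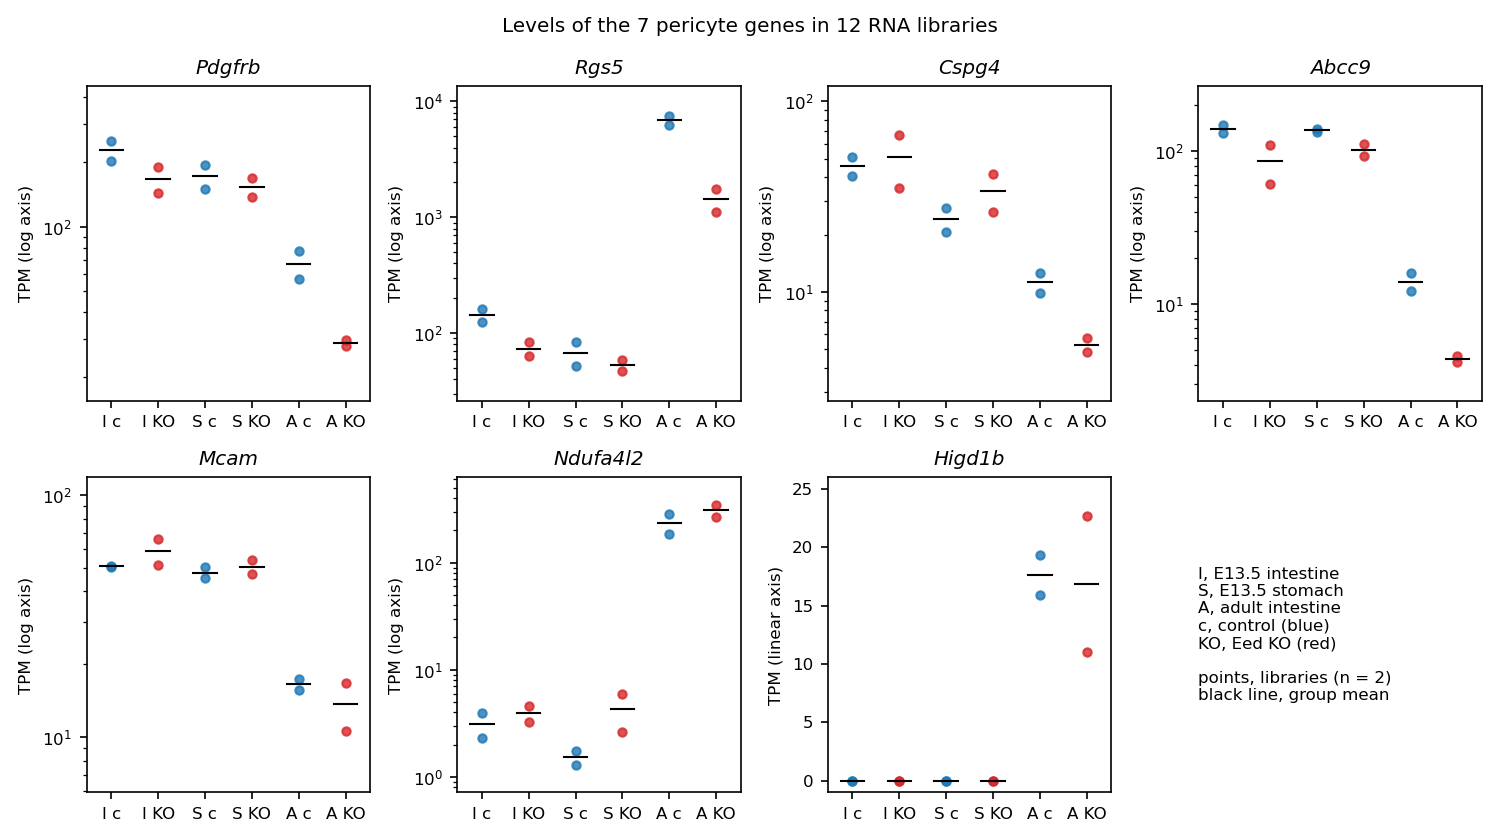
TPM of the 7 genes in each of 12 libraries (points, n = 2 per group; black lines, group means), on log axes except for *Higd1b*, for the embryonic intestine (I), embryonic stomach (S) and adult intestine (A), control or WT (c, blue) and *Eed* KO (KO, red). *Rgs5*, *Ndufa4l2* and *Higd1b* are highest in the adult libraries, and *Pdgfrb*, *Cspg4*, *Abcc9* and *Mcam* in the embryonic ones.

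The comparison of control intestine with control stomach asks which of these genes differ with the organ at E13.5. *Rgs5*, a regulator of G-protein signalling that shortens the response of vascular mural cells to vasoconstrictors, had 191 and 243 CPM in the intestine and 78.4 and 125 CPM in the stomach. Both intestinal libraries were above both gastric ones. The log2 fold change was 1.09 ± 0.25 with an adjusted p of 0.0425 in edgeR's quasi-likelihood test, the only call among 6 members tested, where 1.68% of all 16218 tested genes were called higher in the intestine. The call was lost when either intestinal library was left out (log2 fold changes 1.27 and 0.91, adjusted p 0.107 and 0.215, edgeR) and when gastric replicate 1 was left out (0.80, adjusted p 0.193, edgeR). It was also lost with libraries scaled by their spike-in totals, at 1.05 relative to the median gene (adjusted p near 1.00, edgeR). As bulk RNA, fewer cells of a type and less RNA per cell cannot be told apart, here or in the later comparisons.

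*Cspg4*, the proteoglycan NG2 on the pericyte surface, had 111 and 135 CPM in the intestine and 54.6 and 73.4 CPM in the stomach, with no overlap. Its log2 fold change of 0.94 ± 0.31 had an adjusted p of 0.146 (edgeR) and was not called. With DESeq2 it was 0.95 (adjusted p 0.0189), and with the replicate number as a block 0.95 (adjusted p 0.000164, edgeR), so that there only the size fell short of the limit. *Pdgfrb*, the receptor for PDGF-B, had 375 and 451 CPM against 269 and 351 CPM, a log2 difference of 0.41 ± 0.18 (adjusted p = 0.284, edgeR), or 0.42 with the block (adjusted p 0.0031, edgeR). *Abcc9*, which encodes SUR2, the regulatory subunit of the vascular ATP-sensitive potassium channel, had 339.9 and 369 CPM against 331 and 350.0 CPM, and these overlapped. *Mcam*, the adhesion molecule CD146, had 57.4 and 56.2 CPM against 49.9 and 55.7 CPM. *Ndufa4l2*, a mitochondrial protein whose gene is induced under hypoxia, had 27 and 37 counts against 19 and 16, so that sampling alone limits its log2 difference of 1.05 ± 0.49 (adjusted p = 0.332, edgeR). In 5 of the 6 both intestinal libraries were above both gastric ones, against 24.5% of all tested genes, and in 0 both were below, against 26.7%. The median log2 fold change of the 6 was 0.68, and that of all tested genes was 1.9e-05.

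Of 18 tested genes in a list of other mural cell genes, 2 were higher in the intestine and 1 in the stomach, where 1.68% and 3.39% of all genes were. *P2ry14*, a receptor for UDP-glucose, was higher in the intestine at 4.28 against 0.325 CPM (log2 fold change 3.70 ± 0.40), as was *Des*, the muscle intermediate filament desmin, at 97.1 against 42.8 CPM (1.18 ± 0.19). *Tbx18*, a transcription factor of mural and mesothelial cells, was higher in the stomach at 4.18 against 0.918 CPM (-2.21 ± 0.48). Of 21 recruitment signals 3 were called. *Angpt1*, the mural ligand of the endothelial receptor Tie2, was higher in the intestine at 78.4 against 37.7 CPM (1.06 ± 0.15), as was *Eng*, a TGF-β co-receptor, at 42.7 against 14.7 CPM (1.53 ± 0.24). *Pdgfd*, a ligand of PDGFRβ, was higher in the stomach at 18.7 against 5.01 CPM (-1.91 ± 0.22). Their adjusted p-values lay between 0.00194 and 0.0349 (edgeR). Genes of other cell types differed between the organs too. Smooth muscle genes were positive in 12 of 12, with a median of 0.26 and 1 called. Of 13 endothelial genes 4 were called higher in the intestine and 2 lower, with sums of 24.8 and 29.8 CPM against 28.2 and 27.1 CPM. Genes of enteric neural crest and glia summed to 225 and 213 CPM in the intestine against 65.8 and 80.5 CPM in the stomach, with 1 of 10 called in each direction. Most of that sum was *Ednrb*, at 201 and 188 CPM against 49.0 and 57.6 CPM. Of the 10 genes 4 had a positive log2 fold change and 6 a negative one, with a median of -0.17. The part of these cell types in the *Rgs5* difference was not tested.

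**Figure D3:**
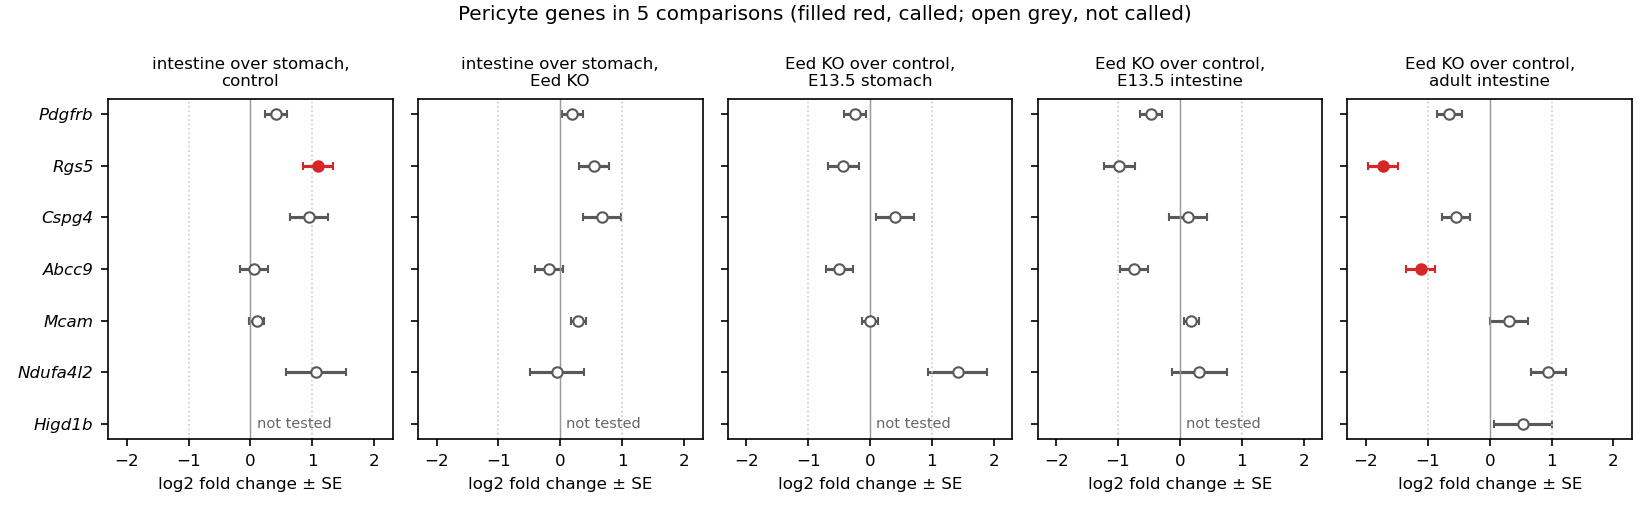
Log2 fold change ± standard error (edgeR) of the 7 genes in 5 comparisons, with dotted lines at 1 in either direction. The filled points are *Rgs5* between control organs (1.09) and *Rgs5* and *Abcc9* in the adult EED-KO libraries (-1.73 and -1.11); *Higd1b* could be tested only in the adult.

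The comparison of *Eed* KO with control embryos asks whether the genes need PRC2. In the stomach none of 6 tested members was called, where 4.84% of all tested genes were called higher and 0.808% lower. At an unadjusted p under 0.05 edgeR gave 1 of the 6, against 22.6% of all genes, and DESeq2 without a spike-in factor called 0. That gene was *Ndufa4l2*, with 30 and 64 counts in *Eed* KO against 19 and 16 in the control, at a log2 fold change of 1.42 ± 0.48 (adjusted p = 0.127, edgeR). It was called without the filter on low counts (1.41, adjusted p 0.0487, edgeR). *Abcc9* had 224 and 258 CPM in *Eed* KO and 331 and 350.0 CPM in the control, with no overlap, at -0.50 ± 0.22 (adjusted p = 0.239, edgeR). The estimate became -1.26 and was called with a spike-in factor in DESeq2 (adjusted p 0.000143).

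*Rgs5* had 85.5 and 65.1 CPM in the *Eed* KO stomach against 78.4 and 125 CPM, and the groups overlapped (-0.43 ± 0.25, adjusted p = 0.353, edgeR). *Cspg4* had 67.3 and 102 CPM against 54.6 and 73.4 CPM (0.40 ± 0.31, adjusted p = 0.491, edgeR). *Pdgfrb* had 240.3 and 283 CPM against 269 and 351 CPM (-0.24 ± 0.18, adjusted p = 0.466, edgeR). *Mcam* was nearly level at 50.4 and 55.1 CPM against 49.9 and 55.7 CPM. The groups did not overlap in 1 of the 6 with *Eed* KO lower and in 1 with it higher, against 27.3% and 27.7% of all tested genes.

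In the embryonic intestine again none of the 6 was called, where 2.38% of all genes were called higher and 0.228% lower. These shares are 386 and 37 genes, which went to 60 and 14 without control replicate 1, to 86 and 11 without control replicate 2 and to 175 and 28 without *Eed* KO replicate 2. At an unadjusted p under 0.05 edgeR gave 3 of the 6, all lower in *Eed* KO, against 14% of all genes in either direction. DESeq2 without a spike-in factor called 0. *Rgs5* had 97.1 and 123 CPM in *Eed* KO against 191 and 243 CPM, and its groups did not overlap. Its log2 fold change was -0.98 ± 0.25 with an adjusted p of 0.0952 (edgeR). DESeq2 gave -0.98 with an adjusted p of 0.00335, so that there only the size fell short of the limit. With the replicate block *Rgs5* was at -0.98 (adjusted p 0.0415, edgeR), *Abcc9* at -0.77 (adjusted p 0.0362, edgeR) and *Pdgfrb* at -0.46 (adjusted p 0.014, edgeR), all under the limit of size. *Abcc9* had 157 and 268 CPM against 339.9 and 369 CPM, also without overlap (-0.74 ± 0.22, adjusted p = 0.154, edgeR).

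The 2 *Eed* KO libraries of the intestine were unlike each other. Replicate 2 had more smooth muscle RNA, with *Myh11*, the smooth muscle myosin, at 1171 CPM against 206 CPM in replicate 1, and a smooth muscle sum of 8236 against 4784 CPM. The fibroblast sum was higher there too (21097 against 12922 CPM), and the epithelial sum was lower (70.5 against 79.3 CPM). What set the libraries apart was not tested. All members with counts were higher in that library, with *Cspg4* at 96.0 CPM in replicate 1 and 173 CPM in replicate 2. Without that library *Abcc9* was at -1.18 and called (adjusted p 0.0106, edgeR), and *Cspg4* turned from 0.13 to -0.36. With the spike-in factor in DESeq2 *Abcc9* was at -1.38 and called (adjusted p 2.1e-07). *Pdgfrb* had 267 and 334 CPM in *Eed* KO against 375 and 451 CPM, with no overlap (-0.46 ± 0.18, adjusted p = 0.288, edgeR). *Mcam*, at 58.4 and 70.8 CPM against 57.4 and 56.2 CPM, and *Ndufa4l2*, at 40 and 50 counts against 27 and 37, were not called. In 3 of the 6 the groups did not overlap with *Eed* KO lower, against 16.4% of all tested genes, and in 1, *Mcam*, with *Eed* KO higher, against 21.8%.

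Relative to *Pdgfrb* in the same library, a measure that does not depend on scaling, *Rgs5* was at a TPM ratio of 0.614 and 0.648 in the control intestine and 0.438 and 0.444 in *Eed* KO. In the stomach the ratio was 0.352 and 0.428 in the control and 0.429 and 0.277 in *Eed* KO. The ratio of *Abcc9* to *Pdgfrb* was 0.659 and 0.595 in the control intestine, against 0.426 and 0.583 in *Eed* KO. *Mcam* went the other way, at 0.250 and 0.204 in the control intestine and 0.358 and 0.347 in *Eed* KO. So did *Cspg4*, at 0.201 and 0.204 against 0.245 and 0.352, and *Ndufa4l2*, at 0.0115 and 0.0157 against 0.0226 and 0.0244. The intestinal groups did not overlap in any of these ratios. How many of all genes would show this was not computed, and no test was made of the ratios.

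**Figure D4:**
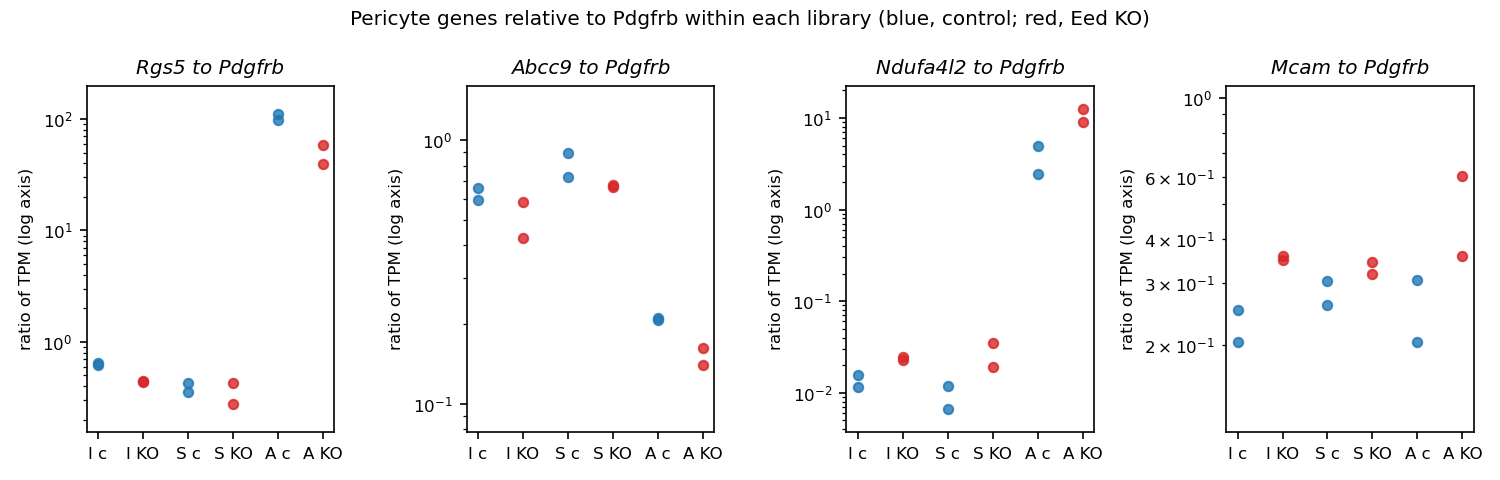
Ratio of the TPM of 4 genes to that of *Pdgfrb* in each of 12 libraries (log axes; points, libraries; blue, control or WT; red, *Eed* KO; I, embryonic intestine; S, embryonic stomach; A, adult intestine). *Rgs5* to *Pdgfrb* is between 0.277 and 0.648 in the embryonic libraries, at 97.9 and 110.0 in adult WT and at 58.5 and 39.9 in adult EED-KO; *Ndufa4l2* to *Pdgfrb* is highest in adult EED-KO.

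Some genes of the other mural list were called with *Eed* KO, where none of the 6 tested members was called in the main fit. The lists were not tested against each other. *Foxc1*, a forkhead factor of mural and mesenchymal development, rose in *Eed* KO from 1.24 to 16.3 CPM in the stomach (3.71 ± 0.30) and from 0.511 to 5.01 CPM in the intestine (3.32 ± 0.34). *Tbx18* rose from 4.18 to 20.2 CPM in the stomach (2.26 ± 0.41) and from 0.918 to 5.32 CPM in the intestine (2.55 ± 0.48). *Ebf1*, a transcription factor of stromal and mural cells, rose from 6.40 to 20.7 CPM in the stomach (1.69 ± 0.35), where *Trpc6*, a cation channel, fell from 10.5 to 3.81 CPM (-1.47 ± 0.16). *P2ry14* fell from 4.28 to 0.955 CPM in the intestine (-2.16 ± 0.36). Their adjusted p-values lay between 0.000873 and 0.0358 (edgeR). In all, 3 of 18 tested genes of that list rose and 1 fell in the stomach, and 2 rose and 1 fell in the intestine. Over all tested genes 4.84% were called higher and 0.808% lower in the stomach, and 2.38% and 0.228% in the intestine.

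Among 21 recruitment signals 1 was called in each organ, *Tie1*, an orphan receptor of endothelial cells, which rose from 0.424 to 1.94 CPM in the stomach (2.17 ± 0.49, adjusted p 0.0377, edgeR) and from 0.954 to 5.25 CPM in the intestine (2.48 ± 0.45, adjusted p 0.032, edgeR). Of all tested genes 4.84% were called higher in the stomach and 2.38% in the intestine, so 1 of 21 recruitment signals was near these shares. Endothelial genes moved with *Eed* KO: 8 of 13 were called higher in each organ and 0 lower. The endothelial sum was 44.1 to 71.9 CPM in *Eed* KO against 24.8 to 29.8 CPM in controls. *Kcnj8*, the pore subunit that pairs with the *Abcc9* product, had 125 and 105 CPM in the *Eed* KO stomach against 217 and 180.5 CPM, a log2 difference of -0.79 ± 0.15 (adjusted p = 0.0188, edgeR) that was under the limit of size, and -0.62 ± 0.15 in the intestine (adjusted p = 0.0724, edgeR). It is named after its values were seen, as the partner of *Abcc9*.

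Between the organs of *Eed* KO embryos 0 of 6 members were called, where 1.46% of all genes were called higher in the intestine and 2.94% lower. At an unadjusted p under 0.05 edgeR gave 1, *Mcam* (0.29 ± 0.12, adjusted p = 0.241), against 19.9% of all genes, and DESeq2 called 0. The *Rgs5* difference was 0.55 ± 0.25 (adjusted p = 0.276, edgeR), and its 2 groups did not overlap. That held for 2 of the 6 with the intestine higher and for 0 with it lower, against 20.5% and 23.9% of all genes. *Cspg4* was at 0.67 ± 0.31, *Pdgfrb* at 0.20 ± 0.18, *Abcc9* at -0.19 ± 0.22 and *Ndufa4l2* at -0.05 ± 0.44. In the same comparison 3 of 18 tested genes of the other mural list were higher in the intestine, *P2ry14* (3.49 ± 0.53), *Des* (1.27 ± 0.19) and *Foxf2*, a forkhead factor of gut mesenchyme and brain pericytes (1.18 ± 0.12), which was named after its values were seen. *Tbx18* (-1.92 ± 0.41) and *Foxc1* (-1.71 ± 0.27) were higher in the stomach. Of the recruitment signals, *Angpt1* was again higher in the intestine (1.45 ± 0.16) and *Pdgfd* in the stomach (-1.87 ± 0.22). Adjusted p-values of these genes lay between 0.00237 and 0.0345 (edgeR). Of 12 smooth muscle genes 5 were called higher in the *Eed* KO intestine, and their part in these differences was not tested.

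Whether the organ difference itself changed with *Eed* KO was tested as an interaction, called at an adjusted p under 0.2. None of the 6 members was called, where 0.462% of all genes were. At an unadjusted p under 0.05 edgeR gave 0, against 5.88% of all genes, and DESeq2 called 0. The *Rgs5* organ difference was larger in control than in *Eed* KO embryos by 0.55 ± 0.35 on the log2 scale, with an unadjusted p of 0.159 in edgeR's fit and an adjusted p near 1.00. The call of *Rgs5* in one genotype and not in the other is thus not shown to be a difference between them.

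Of the members, 3 spanned more than 1 log2 unit over the 4 embryonic group means: *Rgs5* at 1.53, *Ndufa4l2* at 1.37 and *Cspg4* at 1.02. Among 13385 genes with a mean of at least 1 CPM, those whose profile over the 8 libraries was nearest to *Rgs5* were *Nrg1*, *Prlr* and *Etv1*, with root mean square differences of 0.155, 0.215 and 0.217 log2 units. *Nrg1* encodes the growth factor neuregulin, *Prlr* the prolactin receptor and *Etv1* an ETS transcription factor. Nearest to *Cspg4* were *Thbs2*, a matricellular thrombospondin (0.0904), *Chga*, the granule protein chromogranin A (0.115), and *Gnao1*, a G-protein subunit (0.119). *Tbc1d8*, *Aff1* and *Zfp462* were nearest to *Ndufa4l2*, at 0.154 to 0.164, though that profile rests on 16 to 64 counts. None of these neighbours was one of the 7 or of the other mural list.

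In the adult intestine the libraries labelled EED-KO were compared with those labelled WT, both sorted from cells in which the Pdgfrb driver had been active. *Rgs5* had 13184 and 11315 CPM in WT and 4333 and 3069 CPM in EED-KO. Both EED-KO libraries were far below both WT libraries, and the log2 fold change was -1.73 ± 0.24 (adjusted p = 0.00312, edgeR). *Abcc9* had 46.2 and 36.1 CPM in WT and 17.2 and 20.8 CPM in EED-KO, at -1.11 ± 0.24 (adjusted p = 0.0159, edgeR). These were the 2 members called lower of 7 tested, and 0 were called higher, where 7.23% of all 15039 tested genes were called lower and 12.3% higher. The number of genes called lower was 1088, and it was 587 with spike-in totals. *Rgs5* was called under every alternative listed below. *Abcc9* was not called without WT replicate 1 (-0.93, adjusted p 0.0838, edgeR) or with libraries scaled by spike-in totals (-1.10 relative to the median gene, adjusted p 0.194, edgeR).

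*Pdgfrb*, the gene of the Cre driver, had 162 and 124 CPM in WT against 89.2 and 92.8 CPM in EED-KO, without overlap, at -0.65 ± 0.21 (adjusted p = 0.0624, edgeR). *Cspg4* had 30.7 and 40.1 CPM against 25.1 and 23.7 CPM (-0.54 ± 0.23, adjusted p = 0.134, edgeR). The mitochondrial gene *Ndufa4l2* pointed the other way, with 68.9 and 109 CPM in WT and 140.2 and 202 CPM in EED-KO (0.95 ± 0.29, adjusted p = 0.0547, edgeR). It was called in 3 alternatives: without WT replicate 2 (1.32), without EED-KO replicate 1 (1.16) and with a spike-in factor in DESeq2 (1.09). *Higd1b*, which encodes another hypoxia-inducible domain protein of mitochondria, had 86 and 76 counts in WT and 51 and 151 in EED-KO, which overlap (0.54 ± 0.47, adjusted p = 0.446, edgeR). *Mcam* had 20.1 and 23.1 CPM against 19.5 and 34.2 CPM, also overlapping (0.31 ± 0.31, adjusted p = 0.505, edgeR). Groups did not overlap in 4 of the 7 with EED-KO lower and in 1 with it higher, against 33% and 32.3% of all tested genes.

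Members thus moved apart from each other within the adult libraries. The TPM ratio of *Rgs5* to *Pdgfrb* was 97.9 and 110.0 in WT and 58.5 and 39.9 in EED-KO, and that of *Ndufa4l2* to *Pdgfrb* was 2.42 and 5.00 in WT and 8.97 and 12.4 in EED-KO. *Abcc9* to *Pdgfrb* was 0.207 and 0.212 against 0.140 and 0.163. None of these ratios overlapped between the genotypes, nor did those of *Mcam* and *Higd1b* to *Pdgfrb*, which were higher in EED-KO. The ratio of *Cspg4* did overlap, at 0.129 and 0.220 in WT and 0.191 and 0.174 in EED-KO. How many of all genes would not overlap in this way was not computed. The share of *Rgs5* in the summed TPM of the 7 was 84.1% and 72.4% in EED-KO, and that of *Ndufa4l2* was 12.9% and 22.6%, against 2.37% and 4.27% in WT. The *Abcc9* values in EED-KO rest on 171 and 269 counts.

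The adult genotypes differed in the RNA of several cell-type lists. All 11 leukocyte genes tested were called higher in EED-KO, and the list summed to 757 and 1076 CPM in WT and to 21313 and 19499 CPM in EED-KO, with *Lyz2*, a lysozyme of myeloid cells, at 8314 and 6614 CPM. No gene of that list was at 0 in any adult library. Fibroblast genes fell, 6 of 12 called lower and 1 higher, with sums of 30938 and 34666 CPM in WT and 18484 and 16648 CPM in EED-KO. Smooth muscle genes were called higher in 3 of 12 and lower in 0, and endothelial genes in 2 of 13 and 0. Over all tested genes 12.3% were called higher and 7.23% lower, so the endothelial count was near the share of all genes. The 10 most abundant genes took 10.9% and 11.2% of counts in WT and 16.9% and 18.7% in EED-KO, and the TMM factors were 1.20 and 1.17 against 0.874 and 0.815. TPM has no such factor, and on that scale *Ndufa4l2* had 187 and 286 in WT and 267 and 346 in EED-KO, so that its groups overlapped. The mean TPM of *Mcam* was 16.5 in WT and 13.7 in EED-KO and that of *Higd1b* 17.6 and 16.9, the opposite order to CPM. *Rgs5* fell further on this scale, from a mean of 6919 to 1428 TPM, and *Abcc9* from 14.02 to 4.35 TPM. The mean of *Pdgfrb* was 67.1 TPM in WT and 28.8 in EED-KO, and that of *Cspg4* was 11.3 and 5.27. The part of leukocyte RNA in the changes of *Rgs5* and *Abcc9* was not tested.

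**Figure D5:**
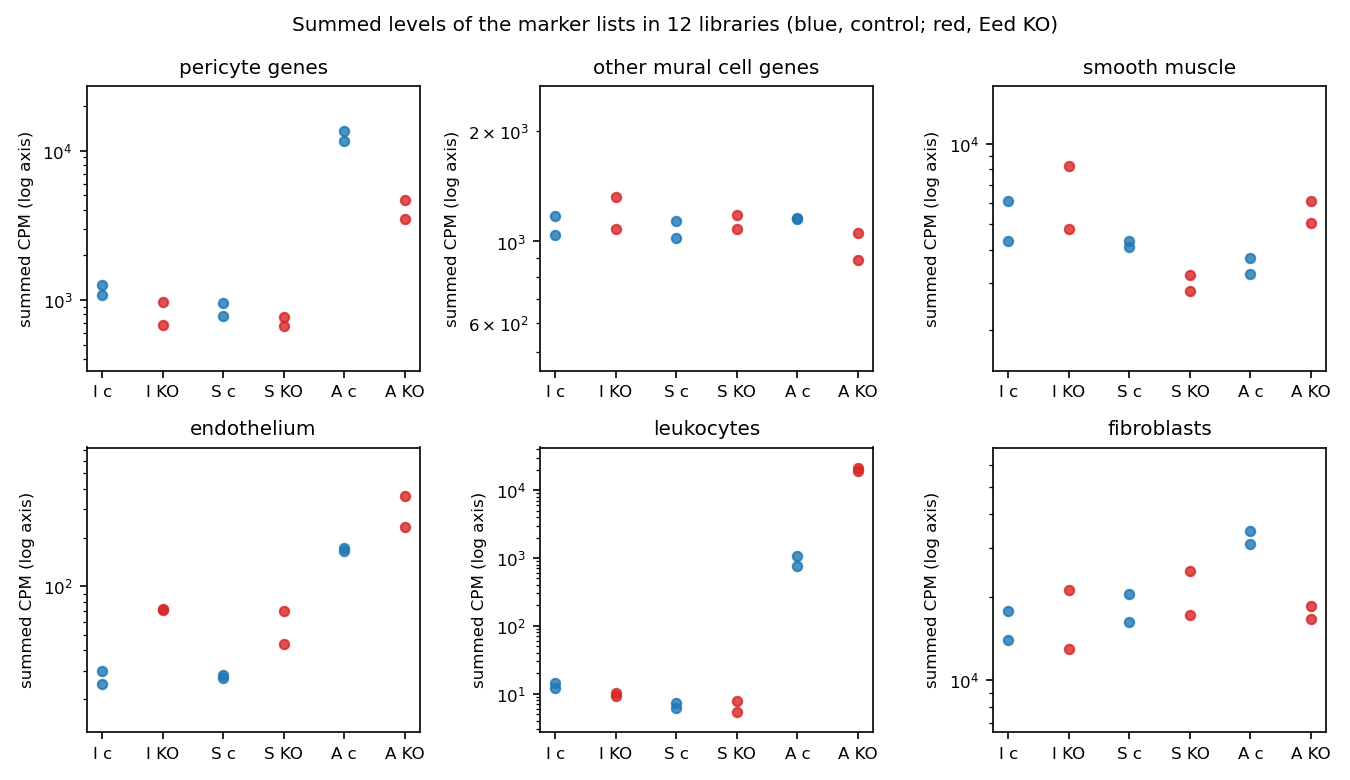
Summed CPM of 6 gene lists in each of 12 libraries (log axes; points, libraries; blue, control or WT; red, *Eed* KO; I, embryonic intestine; S, embryonic stomach; A, adult intestine). The pericyte sum, carried by *Rgs5*, was 13519 and 11652 in adult WT and 4629 and 3454 in EED-KO, while the leukocyte sum went from 757 and 1076 to 21313 and 19499.

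Of 19 tested genes in the other mural list 3 fell and 1 rose, where 7.23% of all tested genes were called lower and 12.3% higher. *Kcnj8* fell from 60.8 to 18.6 CPM (-1.71 ± 0.21), alongside *Abcc9*, with which it forms 1 channel. *P2ry14* fell from 551 to 204 CPM (-1.44 ± 0.21) and *Foxf2* from 20.5 to 5.39 CPM (-1.92 ± 0.40). *Ebf1* rose from 64.3 to 146 CPM (1.18 ± 0.22). *Notch3*, the receptor that matures arterial mural cells, had 19.3 and 19.6 CPM in WT and 25.9 and 29.3 CPM in EED-KO, and *Vtn*, vitronectin, had 25.2 and 24.0 CPM against 24.4 and 29.3 CPM. Neither was called, and both were picked as examples after their values were seen. The median log2 fold change of the 19 was 0.47, that of the 7 pericyte genes -0.54 and that of all tested genes 0.0013.

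Recruitment signals were called in 8 of 20 tested, 6 higher and 2 lower, where 12.3% of all tested genes were called higher and 7.23% lower. *Pdgfb*, the ligand that recruits pericytes, rose from 0.814 to 9.39 CPM (3.51 ± 0.67). *Hbegf*, an EGF-family ligand also made by macrophages, rose from 8.37 to 92.4 CPM (3.46 ± 0.30), and *Pdgfc* rose from 5.28 to 22.0 CPM (2.05 ± 0.30). The receptor gene *Pdgfra*, a fibroblast marker as well, fell from 1035 to 298 CPM (-1.79 ± 0.22), and *Pdgfd* fell from 65.7 to 24.4 CPM (-1.43 ± 0.23). *P2ry14*, *Ebf1* and *Pdgfd* were named after their values were seen, to complete the counts. The adjusted p-values of the called genes in both lists lay between 0.000448 and 0.0206 (edgeR). Leukocyte genes rose in these same libraries, as given above, and their part in these changes was not tested.

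Side by side, *Rgs5* was at -0.43 and -0.98 in the embryonic *Eed* KO stomach and intestine, where the *Eed* count fell. It was at -1.73 in the adult libraries labelled EED-KO, where a fall of the *Eed* count in these libraries was not shown. In the same order *Abcc9* was at -0.50, -0.74 and -1.11. *Pdgfrb* was at -0.24, -0.46 and -0.65. *Ndufa4l2* was at 1.42, 0.32 and 0.95. *Mcam* was near 0 in the stomach and at 0.19 and 0.31 in the intestines, and in the adult its sign turned when single libraries were left out. The embryonic and adult libraries were fitted separately, and the differences between these values were not tested.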

How the data were processed

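RNA-seq was analysed in 8 embryonic and 4 adult libraries, and ATAC-seq in 4 peak lists. The authors trimmed reads with Trimmomatic, aligned RNA reads with STAR to GRCm38/mm10 with SIRV and ERCC spike-in sequences and deposited raw counts per gene symbol from featureCounts on GENCODE vM4, unstranded in the adult per the file headers. For ATAC-seq the authors pooled replicates and called broad peaks with MACS2, and deposited a fold enrichment (a ratio to background), an integer score, and a -log10 q value per peak. The score was not used.

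Counts were fitted with edgeR 4.0.16 in R 4.3.3 after TMM scaling and filterByExpr, with 16218 embryonic and 15039 adult genes tested, spike-ins left out. Embryonic libraries were fitted together by group and adult ones apart. TPM used the exonic lengths in the adult headers. Promoter peaks overlapped by at least 1 bp the 1000 bp on either side of the gene start. Profiles were compared as log2(CPM + 0.5) centred on their mean. Of the other mural and recruitment lists, up to 6 called genes per comparison over both lists with the largest fold change were named. In the alternatives scaled by spike-in totals or by library totals, fold changes and calls are relative to the median gene. Alternatives were DESeq2 1.42.0, DESeq2 with 1 RUVg spike-in factor, no filter, spike-in scaling, a replicate block, fewer libraries, and, chosen after seeing the data, library totals in the adult. The study itself normalised counts on the spike-ins with RUV-seq and tested them with DESeq2 at the same limits. The scripts were tested on simulated data. The members and lists were chosen with earlier results of these data known.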

Additional observations from a re-analysis of the deposited data

How the results depend on the processing

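Under the alternatives other than leaving out single libraries, 201 of 216 log2 fold changes of single members kept their sign and their side of the threshold, 2 lost a call, 4 gained one and 9 changed sign. Between control organs the number called went from 1 to 0 with spike-in totals, and *Abcc9* turned to -0.0577 with the RUVg factor. For *Eed* KO in the stomach the number went from 0 to 1 without a filter (*Ndufa4l2*) and to 1 with the RUVg factor (*Abcc9*), where *Cspg4* turned to -0.72. *Mcam*, near 0 there, became 0.0250 with spike-in totals and 0.0015 with only the 4 libraries compared. In the intestine the number went from 0 to 1 with the RUVg factor, where *Cspg4*, *Mcam* and *Ndufa4l2* turned to -0.79, -0.10 and -0.44. In the adult it went from 2 to 1 with spike-in totals. Between *Eed* KO organs *Ndufa4l2* became 0.0726 with the RUVg factor. The cause of these changes was not tested. Values with spike-in totals are given relative to the median gene, which that scaling shifted by 2.39 (stomach), 1.85 (intestine) and -0.42 (adult) in *Eed* KO. That scaling called 180 of all genes higher and 33 lower in the *Eed* KO stomach against 785 and 131, 116 and 26 in the intestine against 386 and 37, 60 and 109 between control organs against 273 and 549, 22 and 61 between *Eed* KO organs against 237 and 477, and 20 and 1 for the interaction against 44 and 31. With the RUVg factor the stomach gave 352 and 319, the intestine 311 and 161 and the interaction 106 and 133. In the adult, against 1856 and 1088, spike-in totals gave 1496 and 587 and the RUVg factor 1675 and 772. DESeq2 gave 610 and 55 in the intestine and 107 and 98 for the interaction, and no filter 734 and 66 and 120 and 117. With only the 4 libraries compared there were 217 and 27 in the intestine and 129 and 268 between *Eed* KO organs.

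Leaving out 1 library at a time gave 0 to 1 calls between control organs, 0 to 1 for *Eed* KO in the intestine, 0 to 0 in the stomach, between *Eed* KO organs and for the interaction, and 1 to 3 in the adult. Estimates that crossed 0 ranged from -0.0819 to 0.0808 for *Mcam* in the stomach, from -0.36 to 0.49 for *Cspg4* and from -0.0129 to 0.70 for *Ndufa4l2* in the intestine, and from -0.62 to 0.15 for *Abcc9* and from -0.50 to 0.62 for *Ndufa4l2* between *Eed* KO organs. For the interaction they ranged from -0.0900 to 0.76 for *Cspg4* and from -0.0920 to 0.68 for *Abcc9*, and in the adult from -0.16 to 0.64 for *Mcam* and from -0.19 to 0.98 for *Higd1b*. A group left with 1 library was assumed to vary like the others.

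The labels do not say that a replicate number marks shared animals. The study's methods describe stomach and intestine dissected from each animal, but do not link library numbers to animals. Deviations of same-numbered libraries correlated at 0.340 between the control organs, 0.714 between the *Eed* KO organs, 0.104 to 0.240 between genotypes and -0.07 in the adult, with only 2 numbers in each group. With the replicate number as a block the calls were 1 between control organs, 0 in the other embryonic comparisons and 2 in the adult, with *Rgs5* at 1.12 between control organs and -1.74 in the adult, and *Ndufa4l2* between *Eed* KO organs at 0.0076. With that block 357 and 774 of all genes were called between *Eed* KO organs and 179 and 171 for the interaction. All promoter settings kept 5 to 7 members with a peak in all 4 lists, and with CPM in place of TPM the same 3 genes were higher in the adult.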
